A study of Mus musculus with 8 samples.

Results

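The genes described here handle vitamin A: Rbp2, Lrat, Rdh7, Rdh16, Dhrs9, Adh1, Aldh1a1, Aldh1a2 and Rbp4. Of the 9 listed genes, 8 had at least 1 probe set that the platform annotation assigns to that gene alone, which gave 9 probe sets of 45101 on the array, with 2 for Lrat. Dhrs9 had no such probe set and was not analysed here, and 1 further probe set that names Rdh16 together with the pseudogene Rdh18-ps lies outside the rule. The genes were chosen from earlier results on the same 8 arrays across all 4 groups, so their differences below describe them and are no independent evidence. Of 13119 genes tested in the series, 8 were members, each by its brightest probe set.

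RNA came from C57BL/6 mice on AIN-76 diet, and every mouse carried the Apc(Min/+) mutation, which gives rise to intestinal tumours, and floxed alleles of Spint1, the gene for the protease inhibitor HAI-1. Non-tumour mucosa and tumours of the small intestine were taken from mice without Cre (control) and from mice with the Vil-Cre transgene (HAI-1 deficient), in 4 groups of 2 arrays. The villin promoter drives Cre in the intestinal epithelium, whereas mucosa and tumours also hold other cells that keep Spint1. Ages were not given, and nothing in the labels tells whether a group's 2 arrays are separate mice or whether tumour and mucosa share mice, so p-values measure only the spread between these samples, which may be technical. Spint1 itself read 12.87 and 13.00 on the log2 scale in control mucosa, 12.46 and 12.25 in HAI-1 deficient mucosa, 12.75 and 13.06 in control tumours and 11.76 and 11.84 in HAI-1 deficient tumours, lower on all 4 HAI-1 deficient arrays than on the control arrays of the same tissue. The second control tumour array stood apart by its Gapdh probe sets, whose 3' signal was 25.9 times the 5' signal (0.803 to 1.77 times elsewhere), and calls of named genes in control mice that were lost without it are stated.

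Enterocytes take up vitamin A as retinol or cleave it from carotenoids, bind it to the cytosolic carrier RBP2 and store it as esters made by LRAT for packing into chylomicrons. Retinol can instead be oxidised reversibly to retinal by dehydrogenases of the short-chain (RDH) and alcohol dehydrogenase (ADH) families, and then irreversibly to retinoic acid by the ALDH1A enzymes. Retinoic acid acts through the RAR and RXR nuclear receptors and is broken down by the CYP26 hydroxylases.

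Promoter sequence is shown for 5 members with different roles: Rdh7 and Rdh16, the members with the largest tumour differences, Rbp2 as the cytosolic carrier, and Lrat and Aldh1a2, the members with the largest HAI-1 loss differences in mucosa. They span the range of CG pair content among the members. The 120 bases before the annotated start are given 5' to 3' on the strand of the gene, from RefSeq on GRCm38.p6, with each CG pair in capitals. Rdh7 lies at chr10:127889248-127889367 on the minus strand, Rdh16 at chr10:127801033-127801152 on the plus strand, Rbp2 at chr9:98490417-98490536 on the plus strand, Lrat at chr3:82903975-82904094 on the minus strand and Aldh1a2 at chr9:71215669-71215788 on the plus strand.
Rdh7: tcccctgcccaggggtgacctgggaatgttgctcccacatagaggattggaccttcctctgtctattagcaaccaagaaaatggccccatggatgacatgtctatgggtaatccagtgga
Rdh16: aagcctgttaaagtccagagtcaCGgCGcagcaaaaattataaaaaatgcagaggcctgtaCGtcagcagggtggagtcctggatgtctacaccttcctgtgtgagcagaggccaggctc
Rbp2: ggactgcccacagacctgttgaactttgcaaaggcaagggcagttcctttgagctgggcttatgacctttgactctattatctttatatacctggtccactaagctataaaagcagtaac
Lrat: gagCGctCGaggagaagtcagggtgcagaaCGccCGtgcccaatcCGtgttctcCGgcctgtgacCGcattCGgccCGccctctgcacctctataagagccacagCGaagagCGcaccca
Aldh1a2: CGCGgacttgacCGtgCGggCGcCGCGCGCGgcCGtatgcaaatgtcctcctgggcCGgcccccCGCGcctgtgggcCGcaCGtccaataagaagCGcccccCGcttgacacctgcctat

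In these stretches Rdh7 and Rbp2 have 0 CG pairs, Rdh16 has 3, Lrat has 11 and Aldh1a2 has 17. Over the full 250 bases before the start, Aldh1a2 has 40 CG pairs and Lrat 18, while Rbp4 has 28 at 1 annotated start and 5 at the other. The remaining members are CG-poor: Adh1 has 5, Rdh16 4, Rbp2 2, Aldh1a1 3 and 1 at its 2 starts, Rdh7 0 at both of its starts, and Dhrs9 3. Among 32851 RefSeq windows of this length the median is 6 CG pairs. Of the 6 members with lower mean signal in control tumours, Lrat alone had a CG count above that median, and Aldh1a2 and Rbp4, with higher signal, each had a start above it. Over all tested genes with a window, the median CG count at the richest start was 16 for the 2201 genes higher in control tumours, 13 for the 806 lower and 17 for the 7546 not called.

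**Figure D1:**
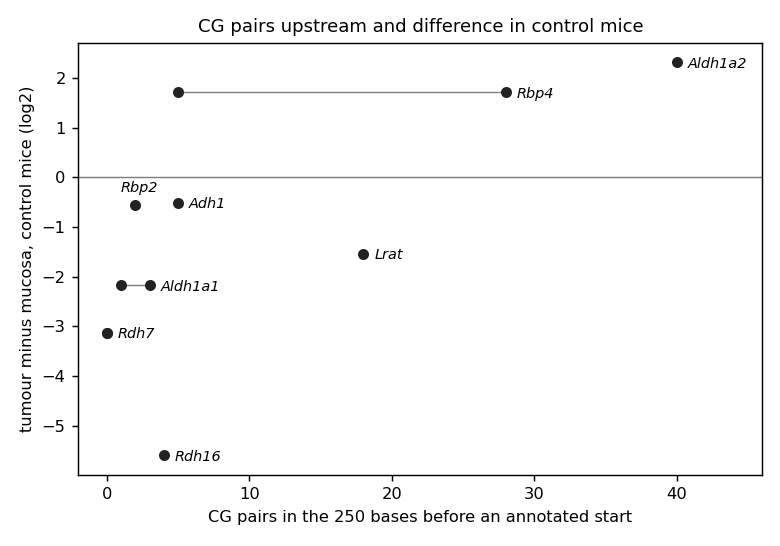
CG pairs in the 250 bases before an annotated start (x axis) against the tumour minus mucosa difference in control mice (y axis, log2), 1 point per start, with starts of the same gene joined by a line. Aldh1a2 (40 CG pairs) and Rbp4 (28 and 5) lie above 0, and the other 6 genes lie below 0.

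Motifs were searched on both strands of the same windows. The nuclear receptor motif AGGTCA occurs in 4 of the 12 member windows, those of Rdh7, Rdh16, Rbp2 and Dhrs9, and in 14% of all windows. Direct repeats of it spaced by 1, 2 or 5 bases, the arrangements bound by RXR dimers, were in none of the member windows and in 0.0335%, 0.00913% and 0.00913% of all windows. The TCF letters ATCAAAG occur in an Rbp4 window (3.21% of all windows) and the CDX letters TTTATG in an Rdh7 window (10.8%). The HNF4 motif CAAAGTCCA, the HNF1 motif and the letters TGATAA, bound by the GATA family, are in none of the member windows, against 0.384%, 0.00913% and 7.94% of all windows. A match of letters is not a binding site. Only exact letters were counted, so imperfect repeats were not found by this search. The direct repeats are so rare over all windows that their absence here cannot tell whether members have such sites.

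The comparison of tumours with mucosa in control mice separated the members into lower and higher genes. Rdh7, Rdh16 and Aldh1a1 fell and Aldh1a2 and Rbp4 rose, so that 5 of 8 members were called by limma at an adjusted p under 0.05, against 28.8% of all tested genes (21.2% higher and 7.64% lower). The members' median difference was -1.04 on the log2 scale, against 0.24 over all tested genes. Without the second control tumour array, Rdh7 (-2.94, adjusted p 0.0144), Rdh16 (0.0108), Aldh1a2 (2.63, 0.00991) and Rbp4 (1.70, 0.0481) were called, Aldh1a1 was not, and Lrat was. In HAI-1 deficient mice Rdh7 and Rdh16 were called, 2 of 8 members, against 4.2% of all tested genes (2.45% higher and 1.75% lower). With fewer cells of a type and less RNA per cell, bulk signal falls alike, and these cannot be told apart here.

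**Figure D2:**
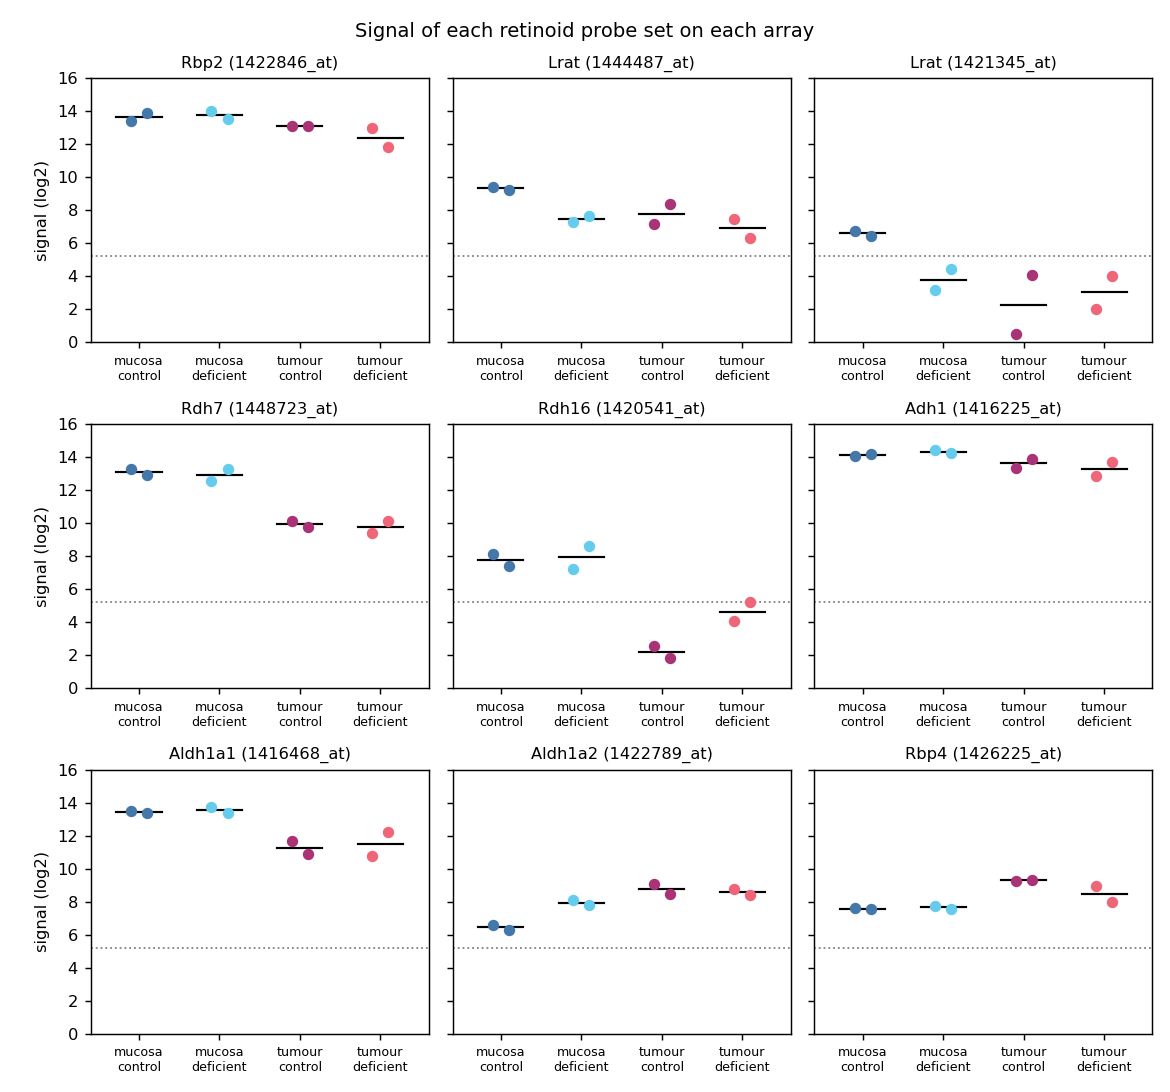
Signal (log2) of the 9 member probe sets on the 8 arrays. Points are arrays, the horizontal bar is the mean of the 2 arrays of a group, and the dotted line is the filter value of 5.20. Rdh7 lies at 12.56 to 13.29 on the mucosa arrays and 9.38 to 10.15 on the tumour arrays, and Aldh1a2 lies lowest on the control mucosa arrays (6.62 and 6.32).

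Among the retinol dehydrogenases, Rdh7 encodes a short-chain dehydrogenase that in rodents oxidises retinols and androgens. On the log2 scale, where 1 unit is a 2-fold difference, its signal was 13.25 and 12.93 in control mucosa, 12.56 and 13.29 in HAI-1 deficient mucosa, 10.15 and 9.78 in control tumours and 9.38 and 10.10 in HAI-1 deficient tumours. All 4 tumour arrays lay below all 4 mucosa arrays, and the genotypes overlapped in both tissues. The tumour difference was -3.13 ± 0.37 (SE, 2 arrays per group) in control mice, 8.74-fold lower, with an adjusted p of 0.00197 by limma. In HAI-1 deficient mice it was -3.19 ± 0.37, 9.12-fold lower, with an adjusted p of 0.0237, a call that was lost in 6 alternative settings (0.0501 to 0.0937). The effect of HAI-1 loss was -0.16 in mucosa (95% interval -1.02 to 0.69) and -0.23 in tumours (-1.08 to 0.63), neither called. These intervals leave room for about a 2-fold change in either tissue.

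Rdh16, a close relative with related substrates, read 8.11 and 7.39 in control mucosa, 7.23 and 8.62 in HAI-1 deficient mucosa, 2.52 and 1.80 in control tumours and 4.05 and 5.22 in HAI-1 deficient tumours. Mucosa was again above tumour on every array, and 3 of the 4 tumour arrays were under the filter value of 5.20, so Rdh16 entered the test through its mucosa signal. With arrays under that value raised to it, Rdh16 was at least 5.85-fold lower in control tumours than in control mucosa (adjusted p 0.00142, limma on the unraised values). In HAI-1 deficient mice it was at least 6.58-fold lower (adjusted p 0.0338), and this call was lost in 8 of the 16 alternative settings in which Rdh16 was tested (0.0543 to 0.115). With the 60th percentile filter, or without the second HAI-1 deficient mucosa array, Rdh16 was under the filter and had no call in either genotype. The fitted difference between the tumour groups, 2.47 ± 0.58, lies almost wholly under the filter value: it was 0.01 with values raised to it, and the adjusted p was 0.779.

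Rdh7 and Rdh16 lie near each other on chromosome 10, where RefSeq lists Rdh1, Rdh9, Rdh16, Rdh18-ps, Rdh19, Rdh16f2, Gm31091, Rdh7 and Sdr9c7 in this order. Rdh9, another dehydrogenase of the cluster, read 13.05 and 12.49 in control mucosa and 10.40 and 8.98 in control tumours, a difference of -3.08 ± 0.54 (adjusted p 0.00671, limma). The 3 genes Rdh7, Rdh16 and Rdh9 were therefore all lower in control tumours. Rdh7 and Rdh16 were chosen from these same arrays, so this is no independent result about the cluster. Paralogs of this family are similar in sequence, so a probe set may take up signal from a neighbour, and how far the 3 readings are separate was not tested.

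Adh1 encodes a cytosolic alcohol dehydrogenase that oxidises retinol as well as ethanol. It read 14.09 and 14.21 in control mucosa, 14.45 and 14.23 in HAI-1 deficient mucosa, 13.36 and 13.91 in control tumours and 12.83 and 13.71 in HAI-1 deficient tumours. Every tumour array was below every mucosa array, by less than for Rdh7. The differences were -0.51 ± 0.35 in control mice (adjusted p 0.309) and -1.07 ± 0.35 in HAI-1 deficient mice (adjusted p 0.12), and limma called neither. Averaged over genotypes, the difference was -0.79 ± 0.25 with an adjusted p of 0.0414, where 35.8% of all tested genes were called (25.7% higher and 10.1% lower). That call was lost in 9 alternative settings (adjusted p 0.0553 to 0.122).

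The carrier Rbp2, which holds retinol in the enterocyte cytosol, followed the same pattern. Its signal was 13.43 and 13.90 in control mucosa, 14.01 and 13.56 in HAI-1 deficient mucosa, 13.11 and 13.12 in control tumours and 12.96 and 11.85 in HAI-1 deficient tumours. Tumour and mucosa arrays did not overlap, and the lowest reading was the second HAI-1 deficient tumour array. The tumour difference was -0.55 ± 0.40 in control mice (adjusted p 0.334) and -1.38 ± 0.40 in HAI-1 deficient mice (adjusted p 0.0927). Averaged over genotypes it was -0.96 ± 0.28, 1.95-fold lower, with an adjusted p of 0.0323, and this call was lost in 6 alternative settings (0.0646 to 0.0972).

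Lrat encodes the enzyme that esterifies retinol bound to the cytosolic carriers. Its tested probe set read 9.43 and 9.21 in control mucosa, 7.26 and 7.67 in HAI-1 deficient mucosa, 7.18 and 8.38 in control tumours and 7.49 and 6.34 in HAI-1 deficient tumours. Control mucosa stood alone: both of its arrays lay above the other 6, which overlapped one another. HAI-1 loss in mucosa gave -1.86 ± 0.49 (95% interval -3.01 to -0.70), 3.63-fold lower, with an adjusted p of 0.114, so limma did not call it. The tumour difference in control mice was -1.54 ± 0.49 with an adjusted p of 0.0527. It was -2.14 (0.0378) without the second control tumour array and -0.94 (0.246) without the first, and it passed the threshold in 6 of 18 alternative settings. The second Lrat probe set, under the filter and not tested, read 6.76 and 6.43 in control mucosa and 0.49 to 4.44 on the other 6 arrays, the same order of control mucosa above the rest. These comparisons of Lrat share the control mucosa arrays.

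Of the retinal dehydrogenases, Aldh1a1 fell and Aldh1a2 rose in control tumours. Aldh1a1 read 13.53 and 13.40 in control mucosa, 13.74 and 13.40 in HAI-1 deficient mucosa, 11.69 and 10.89 in control tumours and 10.79 and 12.24 in HAI-1 deficient tumours. Tumours were below mucosa on all arrays, while genotypes overlapped in both tissues. The difference in control mice was -2.17 ± 0.49, 4.51-fold lower (adjusted p 0.0156, limma), and in HAI-1 deficient mice -2.05 ± 0.49 (adjusted p 0.0602, not called). Without the second control tumour array the control difference was -1.78 with an adjusted p of 0.0866, and without the first or second control mucosa array the adjusted p was 0.0713 or 0.0567.

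Aldh1a2, the retinal dehydrogenase that makes most retinoic acid in the early embryo, read 6.62 and 6.32 in control mucosa, 8.10 and 7.81 in HAI-1 deficient mucosa, 9.10 and 8.48 in control tumours and 8.79 and 8.44 in HAI-1 deficient tumours. Control mucosa was the lowest group, HAI-1 deficient mucosa came next, and the tumour groups overlapped above both. In control mice the tumour difference was 2.32 ± 0.30, 4.98-fold higher (adjusted p 0.00281, limma), and in HAI-1 deficient mice 0.66 ± 0.30 (adjusted p 0.225). HAI-1 loss gave 1.48 ± 0.30 in mucosa (95% interval 0.77 to 2.20), 2.80-fold higher with an adjusted p of 0.068, and -0.17 ± 0.30 in tumours (adjusted p 0.898). The difference between these effects, the interaction, was -1.65 ± 0.43 (95% interval -2.66 to -0.65), with an adjusted p of 0.325. The mucosa effect of HAI-1 loss and the control tumour difference share the control mucosa arrays, on which Aldh1a2 was low.

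Rbp4 encodes the carrier that transports retinol in plasma. It read 7.60 and 7.59 in control mucosa, 7.78 and 7.59 in HAI-1 deficient mucosa, 9.29 and 9.31 in control tumours and 8.97 and 7.98 in HAI-1 deficient tumours. All tumour arrays were above all mucosa arrays, and both HAI-1 deficient tumours were below both control tumours. The tumour difference was 1.71 ± 0.34 in control mice, 3.27-fold higher (adjusted p 0.0102, limma), and 0.79 ± 0.34 in HAI-1 deficient mice (adjusted p 0.199). HAI-1 loss in tumours gave -0.83 ± 0.34, with an adjusted p of 0.779.

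**Figure D3:**
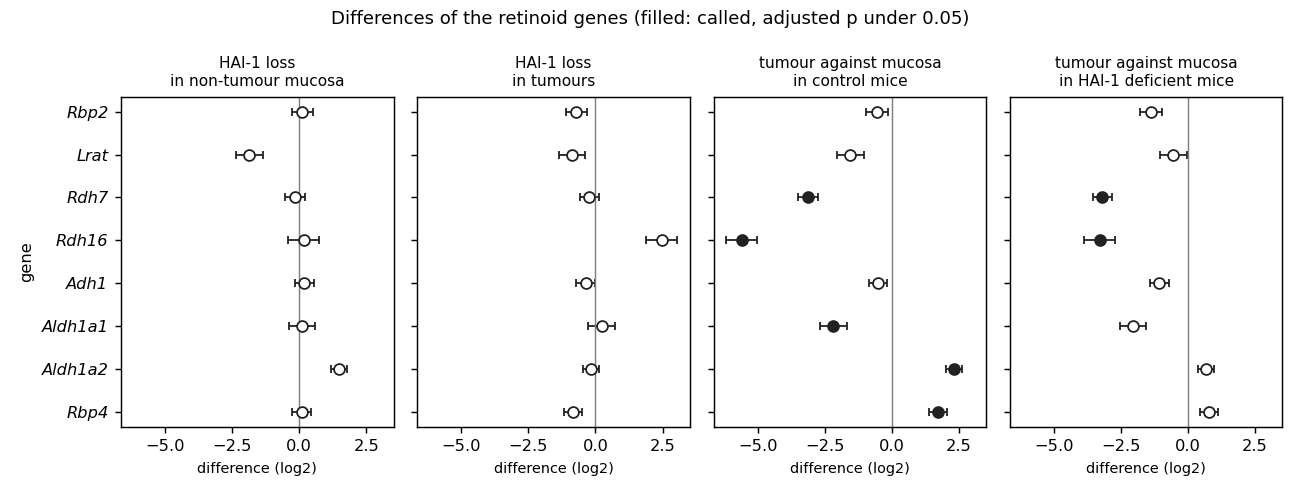
Fitted differences (log2, ± SE) of the 8 tested members in 4 comparisons, with filled points for an adjusted p under 0.05. Filled points appear in the tumour comparisons only: 5 in control mice and 2, Rdh7 and Rdh16, in HAI-1 deficient mice.

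For HAI-1 loss itself, limma called 0 of 8 members in mucosa, against 1.05% of all tested genes (0.899% higher and 0.152% lower), and 0 of 8 in tumours, against 0%. The interaction also gave 0 of 8, against 0%. At an unadjusted p under 0.05 there were 2 members in mucosa (Lrat and Aldh1a2), against 17.5% of all tested genes, 2 in tumours (Rdh16 and Rbp4), against 6.11%, and 2 for the interaction (Rdh16 and Aldh1a2), against 9.23%. Lrat and Aldh1a2 moved in opposite directions in HAI-1 deficient mucosa, and the other 6 members had differences between -0.16 and 0.19 there. Aldh1a2 passed the threshold in 3 alternative settings (adjusted p 0.0375 to 0.0484), and Lrat in none. Poly-A spike-in controls were brighter on 3 arrays, which include the second array of each mucosa group. Within the dimmer and the brighter mucosa arrays, 1 against 1 with no test, Lrat differed by -2.17 and -1.54, and Aldh1a2 by 1.48 and 1.49.

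Averaged over genotypes, tumours differed from mucosa for 7 of 8 members, against 35.8% of all tested genes (25.7% higher and 10.1% lower): Aldh1a2 and Rbp4 rose, and Rdh7, Rdh16, Aldh1a1, Rbp2 and Adh1 fell. Among members with all arrays above the filter value, Rdh7 had the largest averaged difference, -3.16 ± 0.26 or 8.93-fold (adjusted p 0.000594, limma), and Rdh16 was at least 6.20-fold lower. Aldh1a1 was at -2.11 ± 0.35 (adjusted p 0.00385), Aldh1a2 at 1.49 ± 0.22 (0.00254) and Rbp4 at 1.25 ± 0.24 (0.0068). Lrat, at -1.04 ± 0.35, had an adjusted p of 0.0518.

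The other genes of retinoid handling were taken from a list of 57, of which 42 were tested. In control mice, 9 rose and 10 fell in tumours, against 21.2% and 7.64% of all tested genes, and 23 did not pass. The number that rose is near the share over all genes. Their median difference was -0.10, against 0.24 over all tested genes. The same shares apply to the counts by role below, which are for control mice. In HAI-1 deficient mice, 3 rose and 4 fell, against 2.45% and 1.75% of all tested genes. Averaged over genotypes, 9 rose and 14 fell, against 25.7% and 10.1%. Among the retinol and retinal oxidoreductases, 5 of 13 fell and 1 rose in control mice. Hsd17b6, a short-chain dehydrogenase related to Rdh7, read 12.73 and 12.07 in control mucosa and 9.77 and 9.21 in control tumours. Its tumour differences were -2.91 ± 0.31 in control mice (adjusted p 0.00163) and -1.76 ± 0.31 in HAI-1 deficient mice (0.0338). Adh4, another retinol-oxidising alcohol dehydrogenase, fell in both genotypes, by 1.77 (0.0125) and 2.20 (0.0312) on the log2 scale. The gene that rose was Rdh10, the retinol dehydrogenase needed for embryonic retinoic acid, at 10.64 and 11.12 in control mucosa and 12.44 and 12.00 in control tumours, a difference of 1.34 ± 0.32 (adjusted p 0.0191). The Rdh10 call was lost with no filter, and without the first control mucosa or the first control tumour array. Rdh5 and Rdh11, which also act on retinols or retinal, fell by 1.27 (0.0235) and 1.23 (0.0136), and the Rdh11 call was lost without the second control tumour array (0.0767). Dhrs3, which reduces retinal back to retinol, was at -0.62 (0.135). Adh7 and the brightest probe set of Dhrs4 were called lower when averaged over genotypes, at -1.44 (0.0419) and -0.62 (0.0189), and not in control mice, where a second Dhrs4 probe set was at -2.21 (0.00898 over all probe sets).

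The remaining ALDH1A relatives split as Aldh1a1 and Aldh1a2 did. Aldh1a7, a close relative of Aldh1a1, read 12.01 and 12.34 in control mucosa and 10.39 and 10.22 in control tumours, with a difference of -1.87 ± 0.36 (adjusted p 0.00912) in control and -2.17 ± 0.36 (0.0306) in HAI-1 deficient mice. Aldh1a3, another retinal dehydrogenase, read 7.96 and 7.87 in control mucosa, 9.92 and 9.02 in HAI-1 deficient mucosa, 10.20 and 10.35 in control tumours and 10.33 and 11.28 in HAI-1 deficient tumours. It rose by 2.36 ± 0.40 (adjusted p 0.00622) in control tumours, and control mucosa was its lowest group, as for Aldh1a2. Its HAI-1 loss difference in mucosa was 1.56 with an adjusted p of 0.109, and that comparison shares the control mucosa arrays.

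Among carriers and their receptors, 3 of 6 rose and 0 fell. Ttr, the plasma partner of RBP4, read 6.85 and 7.88 in control mucosa, 8.75 and 9.31 in HAI-1 deficient mucosa, 11.00 and 11.13 in control tumours and 11.45 and 10.78 in HAI-1 deficient tumours. It rose by 3.70 ± 0.41 in control tumours (adjusted p 0.00178) and by 2.09 ± 0.41 in HAI-1 deficient tumours (0.0411). Stra6, the membrane receptor for RBP4, was at 6.61 and 6.65 in control mucosa and 9.10 and 9.07 in control tumours, a rise of 2.46 ± 0.26 (0.00143), and rose by 1.23 ± 0.26 (0.0467) in HAI-1 deficient tumours. In HAI-1 deficient mice the Ttr and Stra6 calls were lost with quantile normalization, no filter, every probe set tested or only the groups compared. Both were also lost with the replicate number as a block and when any 1 array was left out. Rbp7, a cellular retinol carrier, was at -0.96 (0.209), and Crabp1 and Crabp2, the cellular retinoic acid carriers, were under the filter. With Rbp4 itself, the plasma carrier, its partner and its receptor were all higher in control tumours. Fabp5, which can carry retinoic acid to PPAR-delta, rose by 2.05 ± 0.28 (0.00305) in control mice. A second Fabp5 probe set differed by 0.18 there, with its lowest reading (7.01) on the second control tumour array.

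Uptake and cleavage genes gave 1 higher and 1 lower of 5. Bco2, which cleaves carotenoids off-centre in mitochondria, fell by 2.04 ± 0.25 (0.00237) in control and 1.77 ± 0.25 (0.0281) in HAI-1 deficient mice. Scarb1, a receptor that takes up carotenoids, rose by 2.65 ± 0.39 (0.00412) in control mice. Bco1, which makes retinal from beta-carotene, was at -0.50 (0.622), and Isx, a homeobox repressor of Bco1 and Scarb1, at -0.69 (0.111), with a call at -0.90 (0.0125) when averaged over genotypes. Cd36, a scavenger receptor for lipids, was called in that average, at -2.18 (0.00997), and was at -1.88 (0.067) in control mice, where 2 further probe sets of it were at -2.94 (0.0217 over all probe sets) and -1.82 (0.0468). Of 3 ester genes, Lipe, a retinyl ester hydrolase in adipose tissue, fell by 3.29 ± 0.64 (0.0097), and Dgat1, which can esterify retinol, by 1.90 ± 0.45 (0.0192). The Dgat1 call was lost without the second control tumour array (0.0643), and the Lipe readings in control tumours, 7.86 and 5.66, differed widely.

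For the receptors, Rarb, itself a classical retinoic acid target, read 5.87 and 5.51 in control mucosa, 6.18 and 5.98 in HAI-1 deficient mucosa, 7.85 and 7.92 in control tumours and 7.97 and 9.05 in HAI-1 deficient tumours. It rose in both genotypes, by 2.19 ± 0.37 (0.00604) and 2.43 ± 0.37 (0.0287), with no overlap between tissues. Rxra fell by 1.17 ± 0.25 (0.0125) in control tumours on its brightest probe set, while another of its probe sets differed by 0.17, so its direction depends on the probe set, and the call was lost without the second control tumour array (0.0701). Rara, at -0.16 (0.782), and Rarg, at 1.31 (0.0669), were not called in control mice, and Rarg was called at 1.17 (0.0269) when averaged over genotypes. Of 6 retinoic acid responsive genes, Rarres1 and Rarres2 rose, by 1.13 ± 0.25 (0.0141) and 2.16 ± 0.40 (0.0082), and Tgm2, at 0.25 (0.558), was not called. The hydroxylase Cyp26a1, a sensitive retinoic acid target, read 5.35 and 0 in control mucosa and 6.66 and 5.87 in control tumours, and with an array at 0 its difference is not given as a fold. Cyp26b1 was at 0.12 (0.867).

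**Figure D4:**
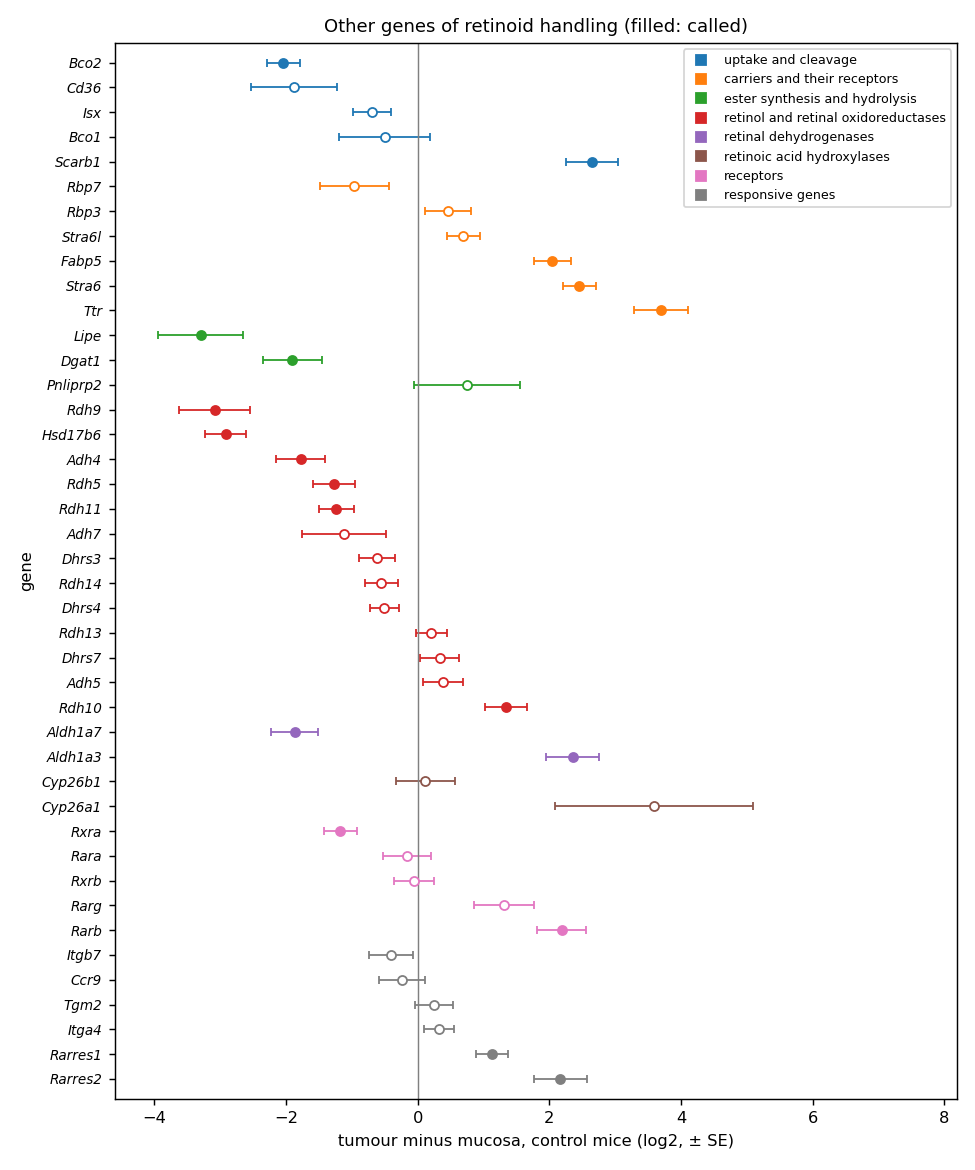
Tumour minus mucosa difference in control mice (log2, ± SE) for the 42 tested other genes of retinoid handling, coloured by role, with filled points for an adjusted p under 0.05. Ttr (3.70) and Scarb1 (2.65) lie farthest right among filled points and Lipe (-3.29) and Rdh9 (-3.08) farthest left.

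Several, not all, marker lists of the cells in these samples moved with the same comparisons. In control tumours 3 of 5 stem cell and 3 of 4 proliferation markers were called higher. Only 1 of 5 goblet cell (median 0.13) and 1 of 5 macrophage markers (median 0.71) were called higher there. Mesothelium markers split: Msln read 5.41 and 5.06 in control mucosa and 8.03 and 7.30 in control tumours. Upk3b read 5.69 and 4.94 in control mucosa and 1.60 and 1.96, under the filter value, in control tumours. The summed linear signal of 9 enterocyte markers was 229392 to 234754 in control mucosa, 214656 to 253208 in HAI-1 deficient mucosa, 173097 to 189367 in control tumours and 142158 to 191413 in HAI-1 deficient tumours, and 2 of 9 were called lower in control tumours (median -0.52). For 6 fibroblast markers the sums were 2124 to 2328, 4448 to 5987, 27136 to 29438 and 19562 to 20824 in the same order of groups. All 6 rose in control tumours (median 3.50), and 0 of 6 were called for HAI-1 loss in mucosa (median 1.36). At an unadjusted limma p under 0.05, all 6 were higher with HAI-1 loss in mucosa, against 17.5% of all tested genes. For the interaction all 6 were below 0 at that level, against 9.23%. Sums of 5 smooth muscle markers, all called higher in control tumours, were 771 to 902, 1501 to 2089, 6256 to 11256 and 5054 to 8840. Those of 5 endothelial markers were 580 to 598, 1114 to 1584, 1403 to 1769 and 1552 to 2876. The endothelial sums of HAI-1 deficient mucosa overlapped those of both tumour groups. Of the 5 endothelial markers 1 was called higher for HAI-1 loss in mucosa, against 0.899% of all tested genes. For Aldh1a2, as for the fibroblast and smooth muscle sums, control mucosa was the lowest group and HAI-1 deficient mucosa the next.

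Sums of 5 distal small intestine markers were 17358 to 19332 in control mucosa and 9583 to 13081 in HAI-1 deficient mucosa. In tumours they were 2676 to 3908 in control and 2716 to 4076 in HAI-1 deficient mice. These sums were carried by Slc51a, Slc51b and Cubn. Of 4 tested distal markers, 3 were called lower in control tumours and 0 for HAI-1 loss in mucosa. Fabp6 did not fall: it read 4.47 and 5.23 in control mucosa and 4.88 and 6.37 in control tumours. In HAI-1 deficient mucosa Fabp6 read 6.47 and 5.65. Slc10a2 was low, at 1.23 to 5.56 over all arrays. Sums of 6 proximal markers, carried by Fabp1, overlapped between all 4 groups (41376 to 65200). In control tumours 3 of the 6 proximal markers were called higher and 0 lower (median 1.05). For HAI-1 loss in mucosa 0 of 6 were called (median 0.50). The mean log2 signal of the proximal list was 10.04 to 10.11 in control mucosa and 10.51 to 11.25 in HAI-1 deficient mucosa, without overlap. In control tumours it was 11.08 to 12.66, and in HAI-1 deficient tumours 11.55 to 11.97. Markers of dendritic cells, a type known to express Aldh1a2 in the gut, summed to 1688 to 2123 in control mucosa, 884 to 1085 in HAI-1 deficient mucosa, 1529 to 1641 in control tumours and 647 to 1171 in HAI-1 deficient tumours. The lower sum in HAI-1 deficient mucosa was carried by Itgae, which intraepithelial T cells also express. Without Itgae the mucosa sums of control (507 and 868) and HAI-1 deficient arrays (357 and 580) overlapped. The adipocyte sum, from 3 markers, was 129 to 165 in control mucosa, 895 to 1291 in HAI-1 deficient mucosa, 1126 to 1633 in control tumours and 727 to 1114 in HAI-1 deficient tumours, carried by Fabp4. The defining adipocyte marker Adipoq was under the filter value on all 8 arrays, and Lep was at 0 on 1. Alb, the albumin gene and a hepatocyte marker, was higher in tumours, as were Ttr and Rbp4, which the liver also secretes. Alb read 2.40 and 1.55 in control mucosa, 3.16 and 5.41 in HAI-1 deficient mucosa, 10.09 and 9.01 in control tumours and 7.71 and 8.47 in HAI-1 deficient tumours. Its control mucosa readings were under the filter value, so Alb entered the test mainly through its tumour signal. The whole hepatocyte list of 5, which holds Ttr, did not rise together in control tumours: of 4 tested, 2 were called higher and 2 lower, and its sums, carried by Apoc3, which enterocytes also express, were 25980 to 28556 in control mucosa and 9034 to 12528 in control tumours. Its mean log2 signal went the other way, 7.40 to 7.54 in control mucosa and 8.34 to 8.92 in control tumours. The part of these cells in the retinoid differences was not tested.

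**Figure D5:**
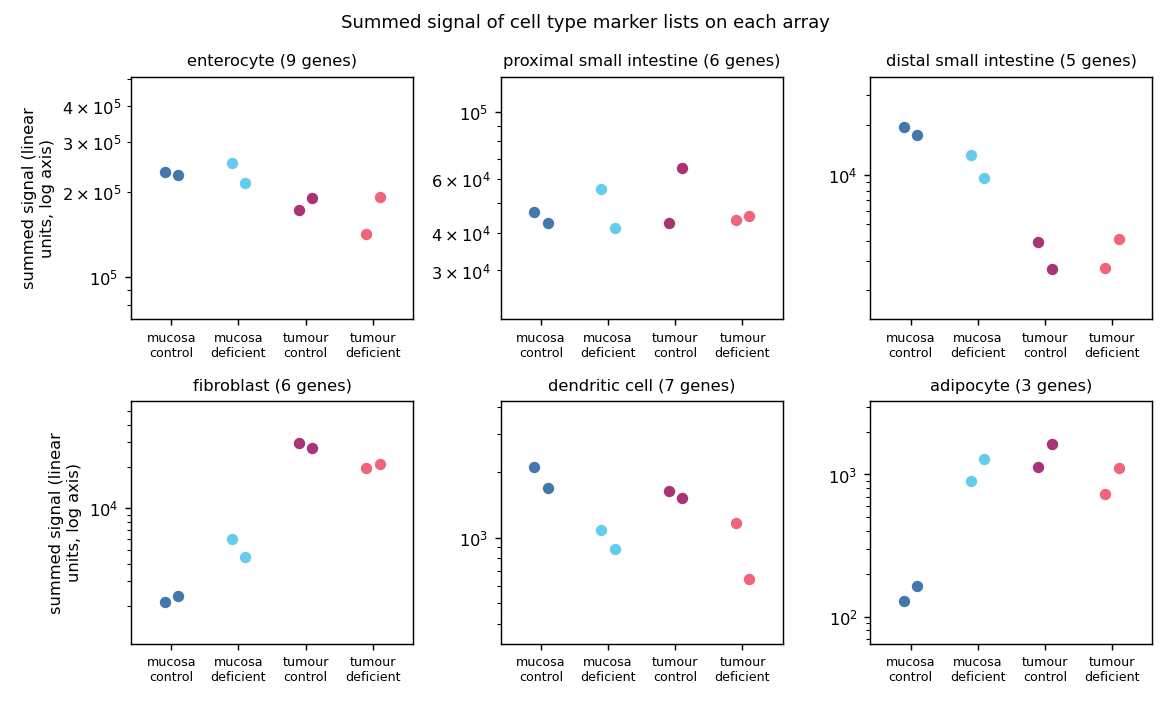
Summed linear signal (log axis) of 6 cell type marker lists on the 8 arrays, 1 point per array. Fibroblast sums rise from 2124 to 2328 in control mucosa to 27136 to 29438 in control tumours. Distal small intestine sums, carried by Slc51a, Slc51b and Cubn, fall from 17358 to 19332 to 2676 to 3908.

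Likeness was measured as the root mean square difference between the profiles of 2 genes over the 8 arrays, each centred on its own mean, so that 0 is an identical profile. Among members, Rbp2 and Adh1 (0.55), Rbp4 and Aldh1a2 (0.61) and Rdh7 and Aldh1a1 (0.65) were closest, and Rdh7 and Aldh1a2 (2.42) farthest apart. Rdh16 is left out here, since 3 of its readings were under the filter value. Over all tested genes, the closest profile to Rdh7 was that of Cyp2d22 (0.35), to Rbp2 Tm4sf5 (0.20), to Aldh1a1 Gpt (0.19), to Adh1 Magi1 (0.11), to Rbp4 Stxbp6 (0.13), to Lrat Trim30d (0.31) and to Aldh1a2 2700038G22Rik (0.14).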

How the data were processed

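The deposited values, on the log2 scale with 1 value per probe set and array, were used as the authors gave them. MAS5 and RMA are named in the submitters' processing notes, with no role for either. The values have the MAS5 form: the linear mean of each array, trimmed by 2% at either end, was 500.003 to 500.004, and the lowest value was 0. Low signals of this kind have large log2 errors. Of 34958 single-gene probe sets, 34754 matched RefSeq symbols. Probe sets with a mean under the 40th percentile (5.20 log2, 36.8 linear) were removed, and the brightest probe set of each gene was tested.

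A model with 4 group means was fitted over the 8 arrays in limma 3.58.1 (R 4.3.3; 4 residual and 3.52 prior degrees of freedom) and tested on simulated data. The two-sided p-values of the 6 contrasts received Benjamini-Hochberg adjustment over 13119 genes and were called under 0.05. An exact permutation test of 2 against 2 arrays cannot go below 0.333. There were 18 alternatives, 8 of which left out an array. Replicate numbers were not used as pairs in the main fit. Correlations of deviations between arrays of the same number were -0.138 to 0.220 over 6 pairs of groups. These values cannot tell whether the arrays are paired. The arrays, not sequencing depth, limit precision, and signal over background is unknown.

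The members and gene lists, and the rule for named genes, were chosen with earlier results of these data known. That rule names every member, and those other retinoid genes that were called or that complete a role.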

Additional observations from a re-analysis of the deposited data

Results flagged for a closer look

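For 3 of the other retinoid genes, both HAI-1 deficient arrays lay above both control arrays in mucosa and below them in tumours. How many of all tested genes show this order was not counted, so the number is no result about retinoid genes. Stra6 differed with HAI-1 loss by 0.82 in mucosa and -0.41 in tumours, an interaction of -1.23 ± 0.36 on the log2 scale with an adjusted p of 0.380. Rarres2 differed by 1.37 and -0.37, an interaction of -1.74 ± 0.57 with an adjusted p of 0.438. Rarres1 differed by 0.84 and -0.58, an interaction of -1.42 ± 0.35 with an adjusted p of 0.297. The interaction was tested with limma, which called none of the 3, and at an unadjusted p under 0.05 it gave 9 of 42 other retinoid genes and 2 of 8 members, against 9.23% of all tested genes. With 2 arrays in each group, no single array could be tested as an outlier.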

How the results depend on the processing

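Of 836 values of members under the alternatives, 786 kept their side of the threshold, 32 lost a call, 18 gained one and 0 reversed a called direction. Among values that were not called, 24 changed sign. For the other retinoid genes the counts were 3005, 116, 29 and 0 of 3150, and 96 values that were not called changed sign. Tumour differences in HAI-1 deficient mice depended most on the setting. Members called there went from 2 to 0 without the filter, 4 with a mean-variance trend, 1 with every probe set tested and 0 with only the groups compared, and other retinoid genes from 7 to 0, 13, 2 and 0. Leaving out 1 array gave 0 to 2 members and 0 to 6 other genes. Members were at 0 without control mucosa array 2, either HAI-1 deficient mucosa array or HAI-1 deficient tumour array 1, and at 1 without control mucosa array 1 or HAI-1 deficient tumour array 2. Other genes were at 0 without any 1 of the 4 mucosa arrays, 1 without HAI-1 deficient tumour array 1 and 2 without its array 2. For HAI-1 loss in mucosa, 0 members became 1, Aldh1a2, with the 60th percentile filter, the trend or values raised to the filter value, and 0 other genes became 1, Fabp5, with the trend. In control mice, leaving out 1 array gave 4 to 6 members and 14 to 21 other genes, and averaged over genotypes 5 to 7 and 19 to 23; without an array, HAI-1 loss and the interaction stayed at 0 for both. Genes called for HAI-1 loss in mucosa, 138 in all, were 331 with the 60th percentile filter, 370 with the trend, 279 with raised values, 86 with the mean of probe sets, 10 with every probe set, 46 with quantile normalization or only the groups compared, 0 with no filter and 0 to 219 without 1 array. For HAI-1 loss in tumours, 0 became 7 without control tumour array 1. In control mice 3777 became 2464 with no filter and 2000 to 3779 without 1 array, with 2000 and 2341 without control mucosa array 1 or 2 and 2047 and 2059 without control tumour array 1 or 2. In HAI-1 deficient mice 551 became 959, 972 and 1000 with the 60th percentile filter, the trend and raised values, 110 with every probe set, 0 with no filter or only the groups compared, and 0 to 384 without 1 array. Among other retinoid genes called in control mice, Rdh10, Rdh5 and Dgat1 were lost with no filter. Without control mucosa array 1, Rdh10, Rdh5, Rdh11, Dgat1, Lipe, Rarres1 and Rxra were lost. Without control mucosa array 2, Adh4, Dgat1 and Rdh5 were lost. Without control tumour array 1, Adh4, Rarres1, Rdh10 and Rdh5 were lost. With fewer arrays the fit has fewer degrees of freedom, and for the other changes the cause was not tested.

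With the replicate number as a block, members called were 0 and 0 for HAI-1 loss in mucosa and tumours, 5 for tumours of control mice, 2 for those of HAI-1 deficient mice, 7 averaged and 0 for the interaction. Other retinoid genes were 0, 0, 19, 5, 23 and 0, and genes in all were 84 for HAI-1 loss in mucosa and 341 for tumours in HAI-1 deficient mice. The labels do not say whether arrays of the same number belong together.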
